A study of Mus musculus with 4 samples.

Results

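The genes described here are 6 that mark alveolar macrophages in the mouse: Marco, Itgax, Pparg, Atp6v0d2, Krt79 and Fabp1. They were chosen by symbol, and all 6 were present in both deposited tables, which hold 23284 genes. Alveolar macrophages are the resident phagocytes of the air spaces, where they take up inhaled particles and clear spent surfactant. Their development depends on the growth factor GM-CSF and on TGF-beta, which induce the nuclear receptor PPAR-gamma, and PPAR-gamma in turn drives the genes of lipid handling that set these cells apart from other macrophages.

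Total lung RNA of C57BL/6 mice was sequenced, with 4 libraries for 4 groups. The HDM libraries came from a wild-type and an IL22-/- group, the latter lacking the cytokine interleukin-22 (IL-22), after sensitization and challenge with house dust mite (HDM), the allergen of an asthma-like airway inflammation, at 48 h from the final dose. The PBS and IL-22 libraries came from wild-type mice without allergen, 24 h after saline (PBS) or the recombinant cytokine was put into the trachea. Whether 1 animal or several went into a library is not stated in the labels, nor is the age of the mice or how the knockout was made, and no difference has a replicate check. The values are FPKM, fragments mapped to a gene, scaled to transcript length and to the library's mapped fragments. The HDM libraries are in 1 table and the PBS and IL-22 libraries in another, so levels from different tables are only set side by side. These groups also differ in allergen, genotype or time after the last dose.

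The whole-read steps of low FPKM values gave depths of 20.14 to 28.54 M reads per library. The RNA was that of lung, with Sftpc, the surfactant protein gene of alveolar type II cells, at 30749 to 37820 FPKM. Il22 was at 0.362 FPKM, about 8 reads, in the wild-type HDM library and was listed at 0 in the other 3, so its absence in the knockout library does not by itself check the label. Since whole lung was used, fewer macrophages and less RNA per macrophage cannot be told apart.

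The 6 genes did not move as 1 block. After HDM the knockout library held less Itgax than the wild-type library, more Fabp1, and Pparg at a similar level. Atp6v0d2 and Krt79 were lower in the knockout by less than the size rule, which calls a gene at a difference of log2(FPKM + 1) of at least 1 with a mean FPKM of at least 1 in the pair. Marco and Fabp1 had their lowest levels in the wild-type HDM library, where Itgax, Atp6v0d2 and Krt79 had their highest. With IL-22 given to the airways all 6 genes lay below their PBS level, none past the size rule.

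**Figure D1:**
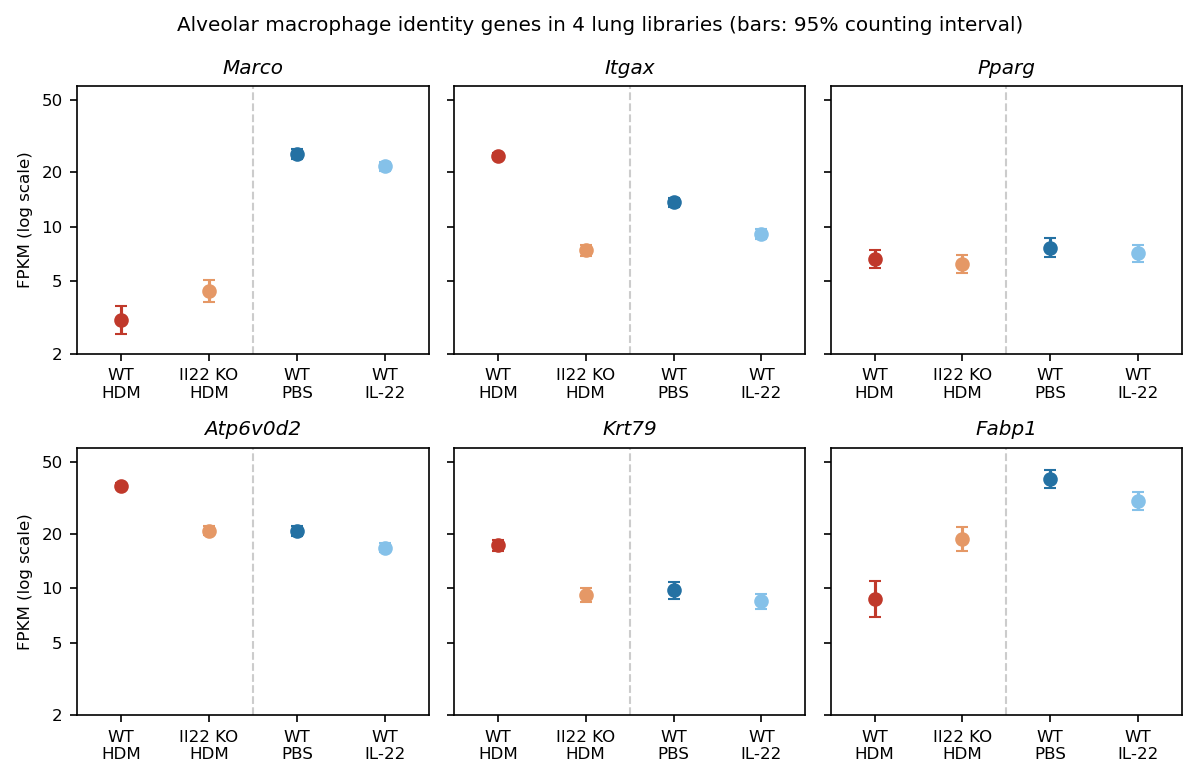
Level of each of the 6 genes (vertical axis, FPKM on a log scale) in the 4 libraries, with 95% counting intervals as bars and a dashed line between the 2 tables. Marco and Fabp1 are lowest in the wild-type HDM library, Itgax, Atp6v0d2 and Krt79 are highest there, and Pparg lies between 6.27 and 7.69 FPKM throughout.

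Marco (chromosome 1, 120474538 to 120505024 of mm10, minus strand, 17 exons) encodes a scavenger receptor that binds bacteria and unopsonized particles. After HDM its level was 3.07 FPKM (wild type) and 4.43 (knockout), and without allergen it was 25.3 with PBS and 21.6 with IL-22. Both HDM libraries were thus far below both libraries without allergen, and the order of the 4 levels had no overlap between neighbouring counting intervals. These intervals, from an estimated 132, 207, 880 and 1062 reads, cover counting error only. Within the HDM table the knockout was at 1.44 times the wild-type level (95% counting interval 1.15 to 1.8), a difference of 0.42 that is not called. Set beside PBS, the wild-type HDM level was 8.25 times lower and the knockout HDM level 5.72 times lower. Differences of -1 or beyond were found across these tables for 2.17% of 13307 genes in the wild-type HDM library and for 1.24% of 13176 in the knockout HDM library, with medians over all genes of -0.02 and -0.03. Marco, at -2.69 and -2.28, and Fabp1, at -2.09 and -1.06, were the members among them, and no member was among the 3.43% and 1.75% of genes higher by at least 1.

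Fabp1 (chromosome 6, 71199827 to 71205023, plus strand, 4 exons) encodes the liver-type fatty acid binding protein, a carrier of long-chain fatty acids in the cytosol. After HDM wild type had 8.74 FPKM and the knockout 18.8, and without allergen the level was 40.4 with PBS and 30.6 with IL-22, so its order over the libraries was that of Marco. The knockout HDM level was 2.15 times the wild-type level (1.63 to 2.84, from 77 and 180 reads). This difference of 1.02 lies just past the size rule, as did that of 0.549% of 13285 genes on the higher side, and with the libraries scaled by their median ratio it was 0.99 and no longer called. The counting interval of the ratio reaches below 2, so the call is not settled by counting error alone. The transcript is short, 553 bases, which makes its FPKM level uncertain beside those of longer genes. Whether fragment sizes that differ between libraries moved its ratios was not tested. Hepatocyte markers were near 0, with Ttr and Fgb listed at 0 in all 4 libraries and the 8 markers adding up to 3.91, 3.52, 3.18 and 2.57 FPKM.

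Fabp1 and Marco shared their order over the libraries, and Itgax was highest in the wild-type HDM library where they were lowest, so stretches of 100 bases from their promoters are shown. They come from the RefSeq promoter table of GRCm38.p6, which held an entry for 5 of the 6 genes and none for Atp6v0d2. In the 250 bases before each start, both strands were searched for AGGTCA, the hexamer that PPAR and other nuclear receptors bind, for GAGGAA, the core of sites of the myeloid factor PU.1, and for TGANTCA, the site of AP-1. Capitals mark AGGTCA (read on the other strand as TGACCT) in Fabp1, GAGGAA in Marco and TGANTCA in Itgax. The stretches lie at chr6:71199727-71199826 (plus strand), chr1:120505118-120505217 (minus strand) and chr7:128129447-128129546 (plus strand).
Fabp1: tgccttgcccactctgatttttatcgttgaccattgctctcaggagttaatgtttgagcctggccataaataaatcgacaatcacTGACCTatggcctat
Marco: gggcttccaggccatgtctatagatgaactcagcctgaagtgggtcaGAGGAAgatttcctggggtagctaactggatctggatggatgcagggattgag
Itgax: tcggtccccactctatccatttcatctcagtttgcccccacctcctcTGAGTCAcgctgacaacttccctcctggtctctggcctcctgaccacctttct

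The marked matches begin 67, 146 and 56 bases before the RefSeq start of Fabp1, Marco and Itgax. The GENCODE start of Fabp1 lies upstream of the RefSeq one, between the marked match and the next 2. Fabp1 had another AGGTCA match 9 bases and a GAGGAA match 45 bases before its start. Of the 3 Pparg starts in the table, 2 had AGGTCA and 1 of these also GAGGAA, while the Krt79 promoter held none of the 3 motifs. Over 32851 promoters of the same length, 14% held AGGTCA, 23.3% GAGGAA and 6.75% TGANTCA, and no matches in these genes overlapped. A match describes letters in this window and is no evidence of binding.

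Itgax (chromosome 7, 128129547 to 128150657, plus strand, 30 exons) encodes CD11c, the alpha X integrin chain that pairs with CD18 and marks alveolar macrophages and dendritic cells. After HDM it was at 24.7 FPKM in wild type but 7.42 in the knockout, and without allergen at 13.6 with PBS and 9.18 with IL-22. The wild-type HDM library stood highest and the knockout HDM library lowest, with no overlap of neighbouring counting intervals. Within the HDM table Itgax was 3.33 times lower in the knockout (3.06 to 3.61), a difference of -1.61, and it was the only member among the 2.42% of genes called lower. It was also the member with the largest difference in the other table, at -0.52, 1.49 times lower with IL-22 (1.36 to 1.62).

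Its measured relatives among the CD11 and CD18 integrins went with Itgax in the HDM table and against it in the IL-22 table. After HDM all 4 measured genes of this list of 5, Itgax included, lay below 0 in the knockout, with Itgb2, the shared CD18 chain, at -0.86 and Itgam (CD11b) at -0.59. With IL-22, by contrast, Itgam was at 12.7 FPKM against 4.32 with PBS, a difference of 1.36, and Itgal (CD11a) and Itgb2 were at 0.64 and 0.25. The level of Itgax relative to Itgam within a library was therefore 3.16 with PBS and 0.725 with IL-22, and 6.10 and 3.15 in the wild-type and knockout HDM libraries.

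Dendritic cells also express Itgax. Of 15 measured dendritic cell genes 14 lay below 0 in the knockout and 3 were called lower, against 2.42% of all measured genes. The median was -0.68, and the summed level of the list was 4897 FPKM against 2624 in the knockout. The called genes were Batf3, a transcription factor, and H2-Ab1 (980 against 476 FPKM) and Cd74 (2525 against 1225), genes of MHC class II presentation. Other cells also express H2-Ab1 and Cd74, which made up most of the sum in every library. Clec9a, a receptor of cross-presenting dendritic cells, was the only gene of the list above 0. It was at 6.93 FPKM in wild type against 11.7 in the knockout. Xcr1, another receptor of these cells, went the other way, at 1.54 against 0.932, as did Batf3, at 7.15 against 2.44. Zbtb46, a transcription factor of conventional dendritic cells, was at 5.15 and 4.82 FPKM. In the IL-22 table the sums were 3042 with PBS and 2734 with IL-22, with 8 of 15 genes below 0 and a median of -0.06, and none of the 15 was at 0. The part of dendritic cells in the Itgax differences was not tested.

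Pparg (chromosome 6, 115360951 to 115490399, plus strand) encodes PPAR-gamma, the nuclear receptor on which alveolar macrophage identity depends, and which fat cells also need. It was the most even of the 6 genes, at 6.68 FPKM (wild type) and 6.27 (knockout) after HDM, 7.69 with PBS and 7.15 with IL-22. All neighbouring counting intervals in this order overlapped. The knockout to wild-type ratio was 0.939 (0.796 to 1.11) and the IL-22 to PBS ratio 0.930 (0.789 to 1.09), so counting error alone spans no difference in both tables. An annotated antisense gene, Gm44079, overlaps Pparg, and whether reads were counted by strand is not given in the sources used here. Pparg differed by -0.08 after HDM and -0.09 with IL-22. Of 8 measured fat cell markers 6 lay below 0 in the knockout and 3 were called lower, against 2.42% of all measured genes. The summed level of the list was 207 FPKM against 134 in the knockout. Fabp4 (68.1 against 23.8), also listed below as an alveolar macrophage gene, and Cfd (54.1 against 22.5) were lower, while Pnpla2 was at 51.3 against 60.8. Given IL-22, 5 of 9 were called higher (summed level 314 with PBS against 575), where 0.786% of all genes were called in either direction. The fat cell hormone Adipoq, for example, was at 6.65 FPKM with PBS and 20.01 with IL-22.

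Atp6v0d2 (chromosome 4, 19876841 to 19922605, minus strand, 8 exons) encodes the d2 subunit of the membrane part of the proton pump that acidifies lysosomes, a form found in macrophages and osteoclasts. After HDM wild type stood at 36.7 FPKM and the knockout at 20.9, and without allergen the level was 20.9 with PBS and 16.8 with IL-22. Krt79 (chromosome 15, 101929332 to 101940324, minus strand, 9 exons), a keratin gene that is a marker of these macrophages, was at 17.3, 9.20, 9.77 and 8.50 FPKM in the same order. For both genes the wild-type HDM library stood apart above the other 3, and the counting intervals of the knockout HDM and PBS libraries overlapped.

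The knockout HDM library held 1.76 times less Atp6v0d2 (1.64 to 1.88) and 1.88 times less Krt79 (1.67 to 2.11) than wild type. Their differences of -0.79 and -0.84 fell short of the size rule but lay below the 5th percentile of all measured genes, at -0.68. With a size rule of 1.5-fold, which 9.64% of 13285 genes passed, Itgax, Atp6v0d2, Krt79 and Fabp1 were called, 4 of the 6. The ratio of Atp6v0d2 to Krt79 within a library was 2.13 in wild type after HDM, 2.27 in the knockout after HDM, 2.14 with PBS and 1.97 with IL-22, although both levels differed between these libraries.

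Of 22 other measured subunit and accessory genes of the pump none was called after HDM, as Atp6v0d2 was not, and their median was -0.06 over a range of -0.74 to 0.44. The general d subunit Atp6v0d1 was at 62.9 against 56.6 FPKM in the knockout, so the ratio of Atp6v0d2 to Atp6v0d1 was 0.584 and 0.369. It was 0.297 with PBS and 0.256 with IL-22. The next largest differences among the subunits after HDM were those of Atp6v0a4 (-0.74) and Tcirg1 (-0.56), both forms of the a subunit. As a ratio of FPKM, Atp6v0a4 was 1.93 times lower in the knockout (5.07 against 2.62), against 1.76 times for Atp6v0d2. For Krt79, the keratinocyte genes Krt5, Krt14 and Dsg3 were at most 0.214, 0.521 and 0.0257 FPKM in any library. The 9 keratinocyte markers added up to 17.3 FPKM (wild type) and 20.05 (knockout) after HDM, 32.4 with PBS and 33.9 with IL-22, most of it from Sbsn (14.1, 17.9, 28.8 and 30.2).

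**Figure D2:**
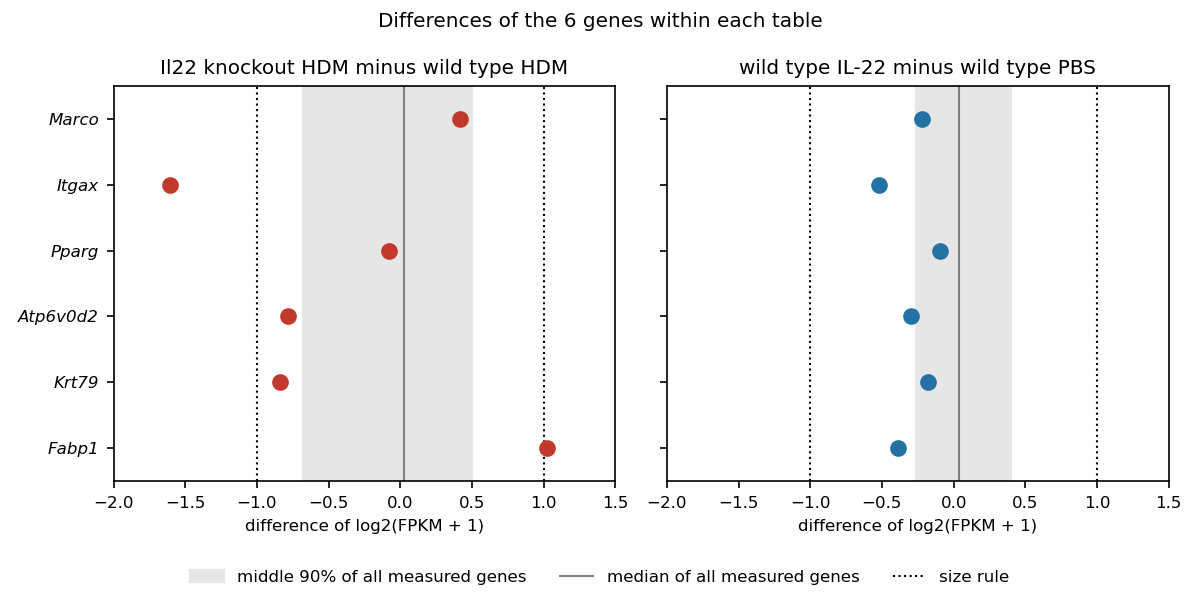
Difference of log2(FPKM + 1) of each gene (points) within the HDM table, left, and within the PBS and IL-22 table, right, with the middle 90% of all measured genes in grey, their median as a line and the size rule as dotted lines. Itgax at -1.61 and Fabp1 at 1.02 are past the size rule on the left, and all 6 points lie below 0 on the right.

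As a set, 4 of the 6 genes lay below 0 and 2 above in the HDM table, where 46.1% of all 13285 measured genes lay below 0. The median of the 6 was -0.43 and that of all genes 0.03, but this median stands between genes that differed in opposite directions, 1 called lower and 1 called higher. In the IL-22 table all 6 lay below 0, where 41.4% of 13233 genes did, and the median was -0.26 against 0.04 for all genes. The differences were -0.22 for Marco, -0.52 for Itgax, -0.09 for Pparg, -0.30 for Atp6v0d2, -0.18 for Krt79 and -0.39 for Fabp1. None passed the size rule, which 0.786% of genes did, or 1.5-fold, which 2.42% did. Itgax, Fabp1 and Atp6v0d2 lay below the 5th percentile of all genes, at -0.26, and the counting interval of the ratio to PBS reached 1 for Pparg and for Krt79 (0.758 to 1.0). All 6 kept their sign under every scaling tried, although Pparg came to -0.00024 with the libraries scaled to a common total.

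A scaling factor common to a library cancels in ratios between its genes, so these can be set side by side across all 4. Length corrections do not cancel. Whether fragment sizes that differ between libraries moved the ratios with the short Fabp1 transcript was not tested. The ratio of Itgax to Marco was 8.04 (wild type) and 1.68 (knockout) after HDM, 0.538 with PBS and 0.426 with IL-22. That of Atp6v0d2 to Fabp1 was 4.20, 1.11, 0.517 and 0.548. For both ratios the wild-type HDM library was highest and the knockout HDM library lay between it and the libraries without allergen. Marco and Fabp1, which shared their order, did not keep a fixed ratio, since Fabp1 stood at 2.84 times Marco in wild type and 4.24 times in the knockout after HDM, and at 1.59 and 1.42 times with PBS and IL-22. Such ratios show that the genes differed unequally and not which of them changed.

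**Figure D3:**
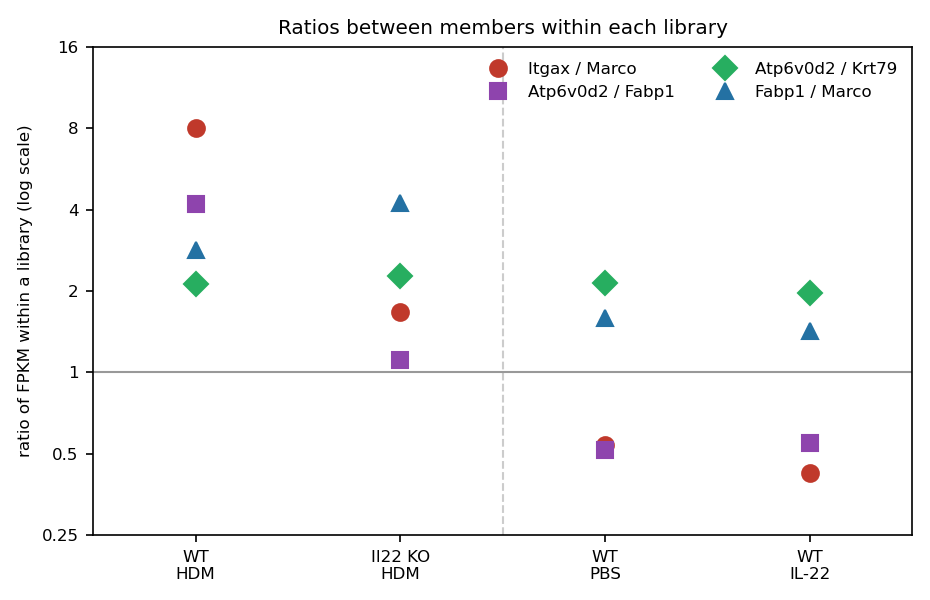
Ratio of FPKM between 2 genes within a library (vertical axis, log scale) for 4 pairs of the genes, with a dashed line between the 2 tables. Itgax to Marco goes from 8.04 in the wild-type HDM library to 0.426 with IL-22, while Atp6v0d2 to Krt79 stays between 1.97 and 2.27.

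Other genes of alveolar macrophages were also uneven. Of 24 further genes of these cells 23 were in the tables and 22 were measured in the HDM table, where the median was -0.33. Of the 22, 6 were called, all of them lower in the knockout, against 2.42% of all measured genes. Among the 4 with the largest differences, Chi3l3 (annotated as Chil3) was at -2.73 (2438 against 367 FPKM). It encodes a chitinase-like protein and has close paralogs that can share its reads. Ctsk, a cathepsin, was at -1.81 (45.2 against 12.2) and F7, coagulation factor VII, at -1.49 (11.9 against 3.62). The fatty acid binding protein Fabp4 was at -1.48. Side by side, the PBS and IL-22 levels were 195 and 186 for Chi3l3, 14.8 and 16.3 for Ctsk, 7.44 and 6.34 for F7, and 67.1 and 175 for Fabp4. Siglec5 (annotated as Siglecf), a sialic acid receptor that marks alveolar macrophages and eosinophils, was even like Pparg, at 4.06 and 4.35 FPKM in wild type and knockout after HDM and at 5.05 and 4.80 with PBS and IL-22. It is given as an example chosen after its values were seen. With IL-22, 17 of 21 measured genes lay below 0 with a median of -0.08, and Fabp4, which fat cells also express, was the only called gene at 1.37.

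Of 15 measured genes that direct these cells' development none was called after HDM. Of these 11 lay below 0 and 4 above, with a median of -0.47. Csf2, the gene of GM-CSF, was at 10.98 FPKM against 5.2 in the knockout, and its receptor chains Csf2ra and Csf2rb at 18.2 against 10.3 and 6.77 against 3.22. Reads of Csf2rb can be shared with its near-identical neighbour Csf2rb2, which was at 3.15 against 1.48. The transcriptional repressor Bhlhe40 was at 42.2 against 21.9, while its relative Bhlhe41, an example chosen after its values were seen, had the order of Marco and Fabp1, at 3.54 FPKM in wild type and 5.55 in knockout lungs after HDM, 13.9 with PBS and 9.84 with IL-22. In the IL-22 table the median of the 15 was 0.00 and none was called.

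Targets of PPAR-gamma and genes of lipid handling had medians near 0, at 0.14 after HDM and 0.02 with IL-22 over 18 measured genes. Fabp4 was the only gene called in either table, lower in the knockout and higher with IL-22. Abca1, the cholesterol exporter, was at 3.31 FPKM after HDM in wild type, against 6.44 in the knockout, a difference of 0.79, and at 5.86 with PBS and 3.55 with IL-22. Angptl4, an inhibitor of lipoprotein lipase, and Cidec, a lipid droplet protein, were at 0.78 and 0.62 with IL-22. Among the fatty acid binding proteins, Fabp1 was the only 1 of 5 measured genes above 0 in the knockout, with Fabp3 and Fabp5 at -0.48 and -0.50. The nuclear receptors Ppard and Rxra, the latter a partner of PPAR-gamma, were at -0.03 and 0.30.

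Scavenger receptors other than Marco went both ways after HDM, with 6 of 13 measured genes above 0 and a median of -0.07. Where 2.42% of all measured genes were called lower, 3 of the 13 were. The called genes were Cd68 (64.9 against 25.7 FPKM), Msr1, the class A relative of Marco (2.35 against 0.523), and the mannose receptor Mrc1 (19.1 against 8.91). Side by side across the tables, Msr1 was at 1.24 FPKM with PBS and 1.55 with IL-22, and so its wild-type HDM level was above its PBS level where that of Marco was below.

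**Figure D4:**
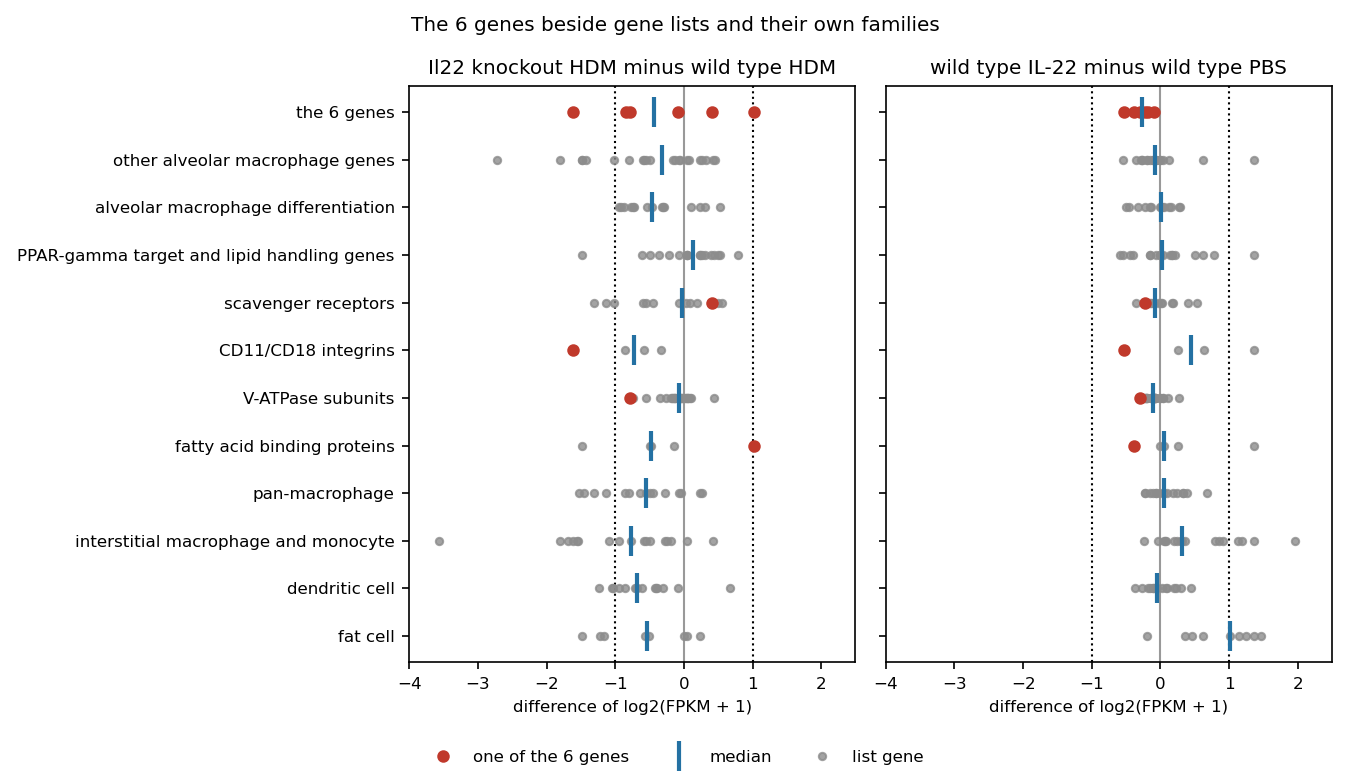
Difference of log2(FPKM + 1) of every measured gene of 12 lists (points, the 6 genes in red) within the HDM table, left, and the PBS and IL-22 table, right, with list medians as blue bars and the size rule as dotted lines. Lists share genes. Itgax lies below its measured integrin relatives in both tables, and Fabp1 lies above the other measured fatty acid binding proteins on the left only.

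Markers of macrophages in general and of other types differed too. Over all measured genes, 2.42% were called lower after HDM and 0.786% were called in either direction with IL-22. Of 15 measured pan-macrophage genes 4 were called lower in the HDM-treated knockout, with a median of -0.55 and Ctss and Cd68 among them, and none was called with IL-22. Their summed level was higher in the knockout, at 10516 against 9574 FPKM. Most of it came from the lysozyme genes Lyz2 (6457 in wild type, 7734 in the knockout) and Lyz1 (1337 and 1574). These close paralogs, which can share reads, were the only 2 genes of the list above 0. The other 13 lay below 0, so the sum does not give their direction. With PBS and IL-22 the sums were 9111 and 8731. Of 17 interstitial macrophage and monocyte genes 7 were called lower after HDM (median -0.77, summed level 1195 against 905 FPKM) and 4 higher with IL-22 (median 0.31, 1098 against 1343). The largest difference of this list after HDM was that of Mmp12, at 37.5 FPKM against 2.25 in the knockout. Emr1 (annotated as Adgre1), the F4/80 antigen, was at 5.21 FPKM with PBS and 23.3 with IL-22, opposite in direction to Itgax. After HDM it was lower in the knockout, as Itgax was, at 7.71 against 3.54. The 9 eosinophil markers added up to 270 (wild type) and 170 FPKM (knockout) after HDM and to 89.8 and 74.9 with PBS and IL-22. Of the 9, 3 are also in the list of other alveolar macrophage genes, and 2 of these made up most of each sum. They were Ear2 (200.5, 114.4, 53.3 and 43.7 in the same order) and Ear1 (55.02, 50.34, 26.99 and 22.29). The sums are therefore not a measure of eosinophils alone. Epx, eosinophil peroxidase, was at most 0.0401 FPKM. After HDM 2 of the 5 measured eosinophil markers were called lower in the knockout. These were the lipoxygenase gene Alox15 (5.35 against 0.363 FPKM) and Prg2, the eosinophil major basic protein (2.83 against 0.173). Of 8 alveolar type II and club cell markers none was called in either table. The largest difference after HDM was that of the club cell enzyme Cyp2f2. It was at 813 and 1322 FPKM in wild type and knockout after HDM, 2869 with PBS and 2429 with IL-22, the order of Marco and Fabp1. Sftpb (1133, 1449, 2209 and 2029) had this order too. The list did not share it, with Scgb1a1 at 124426, 127473, 141280 and 112693 and Lamp3 at 374, 314, 236 and 248. The part of these cell types in the differences of the 6 genes was not tested.

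Genes with a like profile over the 4 libraries were found by the distance between log2(FPKM + 1) values, each gene centred on its own mean, among 11726 named genes measured in both tables. The nearest to Marco were Nrgn, Cyp2a5 and Tcap, at distances of 0.46, 0.52 and 0.64, and only Nrgn was nearer than 0.5. For Fabp1 they were Cyp2f2, S100a9 and Pon1 (0.25 to 0.31), and for Itgax they were Fetub, Oasl1 and Trem2 (0.25 to 0.30). Cd209a, Asf1b and Tra2a lay nearest to Atp6v0d2 (0.08 to 0.14) and H2-Eb1, Pim1 and Asf1b nearest to Krt79 (0.08 to 0.09). Between members, Atp6v0d2 and Krt79 were closest at 0.14, whereas Marco and Fabp1 were 1.09 apart and Marco and Itgax 3.013. Pparg had 7994 genes within 0.5, Nkiras1 being the nearest, so its profile was shared with most genes. With 4 libraries many genes have like profiles by arithmetic alone, and these names describe the libraries only.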

How the data were processed

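Lung RNA of 4 libraries, 1 per group, was measured. The authors deposited FPKM per gene in 2 tables, and per the submitters' processing notes CASAVA 1.8.2, TopHat2 and Cufflinks 2.2.1 were used with mm10, with settings not stated there. The tables were joined on symbol and accession, 25 symbols turned into dates were restored from accessions, and rows of a symbol were added. Within each table, log2(FPKM + 1) values were subtracted for genes whose mean FPKM reached 1, with no p-value. Depth was taken as the read number at which most low values, with 200 bases off the GENCODE transcript length, came within 0.1 of a whole read (64.7 to 67.2% of low values, where chance gives 20%). Counting intervals are exact (Poisson for levels, binomial for ratios) at 95% and leave out variation between animals.

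The genes and the 18 lists were chosen with earlier results of these data known. Genes named are all 6 members, up to 4 per list with the largest differences among measured genes, 3 nearest profiles per member, and examples marked as such or given as cell type checks. Coordinates are from GENCODE on GRCm38, which is mm10. The steps were tested on simulated data. Results were recomputed with 0.1 as the pseudocount, with libraries scaled by their median ratio, to a common total or to one without Scgb1a1, with no filter, with a minimum of 5, and with 1.5-fold. The work used matplotlib 3.10.9, scipy 1.17.1, pandas 2.3.3, numpy 2.4.6 and Python 3.11.15.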

Additional observations from a re-analysis of the deposited data

How the results depend on the processing

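No paired analysis was possible because each group has 1 library and no difference comes from a test. Of 109 values recomputed under 7 alternatives, 105 stayed within counting error or within 1.5 times the main count, 4 moved and none of the called differences changed sign. After HDM the number of members past the size rule was 1 with scaling by the median ratio, where Fabp1 came to 0.99, and 4 with a size rule of 1.5-fold, against 2 otherwise. With a mean FPKM of at least 5, which drops Marco in that table, the median of the members was -0.79 and that of the other alveolar macrophage genes -0.14, since fewer genes were tested. In the IL-22 table no member was called under any of the 7, and scaling to a common total moved the median of all genes to 0.13. The same scaling took the median of the other alveolar macrophage genes from -0.08 to 0.0067, a change of sign within counting error. Depth limits Fabp1 most, with 77 reads in the wild-type HDM library and a ratio interval of 1.63 to 2.84 that holds the size rule of 2-fold. Variation between animals was not measured.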
